A study of Saccharomyces cerevisiae with 74 samples.

Results

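Heat shock was applied to budding yeast lacking Ski2, and the mRNA left after 16 min at 42 °C was compared with that of wild-type cells given the same treatment. The comparison holds 5 of the 74 libraries of the series. They are 2 RNA sequencing (RNA-seq) libraries of the ski2 deletion strain (ski2Δ, libraries L and Q) and 3 of wild-type cells (E, F and I), chosen by the genotype and treatment in their labels. All 5 came from haploid BY4741 or BY4741-derived cells of genotype MATa his3Δ1 leu2Δ0 met15Δ0 ura3Δ0, to which the ski2Δ strain added the deletion. Cells were grown at low density in synthetic medium without tryptophan, filtered, moved to medium at 42 °C for 16 min and collected by filtration. Unstressed cells of the same strains were collected straight from the culture (ski2Δ control, K and P; wild-type control, A, B and H), and xrn1Δ cells at 42 °C (N and S) served as the other decay mutant. RNA of the fission yeast Schizosaccharomyces pombe was mixed into each sample at a fixed share of the RNA. Its reads set the scale for every level given here, called scaled reads (reads of a transcript relative to the S. pombe reads of the library, brought to the size of an average library). Scaled reads therefore refer to an equal amount of total RNA, and fewer cells and less RNA per cell cannot be told apart in them.

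Ski2 is an RNA helicase. With Ski3 and Ski8 it forms the Ski complex, which threads mRNA from its 3′ side into the cytoplasmic exosome, and Ski7 joins the complex to the exosome. The other main route of cytoplasmic mRNA decay starts with removal of the cap and ends with the 5′ to 3′ exonuclease Xrn1. Yeast lives without either route but not without both, and the Ski complex is also known for clearing viral RNA and mRNAs on which ribosomes have stalled. On heat shock, yeast induces chaperone mRNAs and loses most mRNAs for ribosomal proteins and ribosome assembly factors. The study deleted SKI2 and XRN1 to ask which route is needed for that loss.

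The strain was made by CRISPR, with a guide that the methods describe as aimed at the end of the SKI2 reading frame. The place of the guide on the genome was not checked here. A pair of overlapping oligonucleotides served as the repair template. The methods name a single ski2Δ strain grown from a colony, so L and Q are cultures of 1 clone. The guide is shown because it directed the cut, and the overlap because it is the middle of the repair template, both in 5′ to 3′ direction. Capitals in the guide mark its first 14 bases, which stand in the joined repair template, and the last 6 do not. Capitals in the overlap mark its first 11 bases, which stand in the guide as well.
SKI2 guide: AATACTAATTTATAtgtctg
Overlap of the repair oligonucleotides: ACTAATTTATAgagctcatt
The 2 oligonucleotides of 60 bases joined to a template of 100 bases, which did not hold the whole guide.

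SKI2 (YLR398C, chromosome XII, 915156-919019 on the minus strand of assembly R64) had 14 and 5 reads in ski2Δ libraries L and Q, against 3047, 3155 and 2540 reads in wild-type libraries E, F and I. This came to 14.3 and 4.32 scaled reads in ski2Δ and 2539, 2798 and 2327 in wild type. The ski2Δ level was 0.365% of the wild-type level at 42 °C, and the log2 change was -8.14 ± 0.31 (SE, adjusted p = 1.44e-27 by edgeR's quasi-likelihood test with Benjamini-Hochberg adjustment). Unstressed ski2Δ cells held 9 and 8 reads, or 0.205% of the wild-type control. All 4 ski2Δ libraries were thus low in the targeted gene, as labelled. Neither neighbouring gene passed the test. AFG2, which codes for an ATPase of ribosome maturation, had 414 and 412 scaled reads in ski2Δ and 453, 485 and 421 in wild type (adjusted p = 0.828), and BDF1, a bromodomain protein gene on the other side, had 16207 and 13256 against 13238, 11434 and 16955 (adjusted p = 0.913). Neither overlaps SKI2. LEU2 and URA3, both deleted in this background, had at most 1 read in any library. The genotype also lists his3Δ1 and met15Δ0. HIS3 kept 557 and 615 reads in L and Q, and 524, 433 and 637 in E, F and I. No feature matched MET17, the gene of met15Δ0.

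The libraries were of like depth but did not all belong to the same submission. Counted reads ranged from 28867166 to 33020439, of which 687589 to 843633 (2.22% to 2.79%) were S. pombe reads. E and F belong to an earlier run of sample records in the repository and I, L and Q to a later one, so I was the only wild-type heat shock library submitted with the mutant. Over the 5000 mRNAs with the highest mean, the median absolute log2 difference was 0.115 between L and Q and 0.0931 between E and F. Library I differed by 0.143 from L and 0.149 from Q, and by 0.182 from E and 0.233 from F. The wild-type library of the later submission was thus nearer to the mutant libraries than to the other wild-type libraries, as the plot of differences between libraries shows. Results below are therefore given with all 3 wild-type libraries, and some of them also with submission as a term in the fit or against I alone. Where only the value with all libraries is given, the others may differ from it. The median log2 change of the proteasome genes, for instance, was -0.16 with all libraries and -0.01 against I alone. The methods describe biological duplicates per condition, and the wild type has 3 libraries here. The edgeR p-values rest on a spread estimated over all RNA-seq libraries of the series, not on that of the compared libraries alone. With only the compared libraries fitted, 3 mRNAs were called, against 40 in the main fit.

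**Figure D1:**
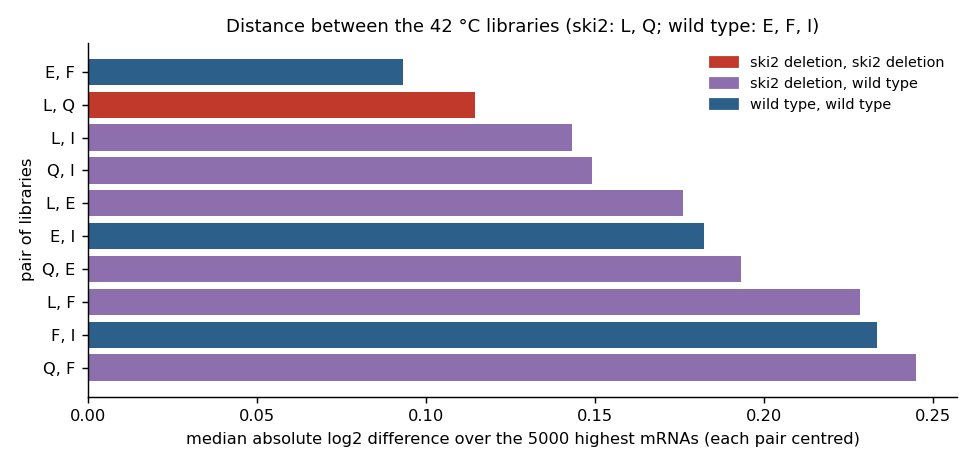
Bars give the median absolute log2 difference between each pair of the 5 heat shock libraries (ski2Δ L and Q, wild-type E, F and I) over the 5000 highest mRNAs, each pair centred on its median difference, with colours for pairs of ski2Δ, pairs of ski2Δ and wild type and pairs of wild type. Pairs within a submission are the least different (0.0931 for E and F, 0.115 for L and Q), and I lies nearer to L (0.143) than to E (0.182).

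Loss of Ski2 left most mRNAs at their wild-type level in heat shock. Total mRNA came to 43.1 and 34.0 reads per S. pombe read in ski2Δ libraries L and Q, and to 37.4, 34.8 and 40.8 in wild-type libraries E, F and I. The wild-type values lie between those of the mutant. Means were 38.5 ± 6.46 (SD, n = 2) in ski2Δ and 37.7 ± 2.99 (SD, n = 3) in wild type, a difference of 0.845 (p = 0.9, exact permutation test, two-sided, for which 0.1 is the smallest p that 10 splits allow). L exceeded Q by 1.27-fold in this value, more than the mutant mean exceeded the wild-type mean.

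Of 6320 mRNAs tested, 34 (0.538%) rose and 6 (0.0949%) fell in ski2Δ at 42 °C, and 683 had an unadjusted p under 0.05 (534 higher, 149 lower). The median log2 change was 0.01, with 90% of mRNAs between -0.34 and 0.58. Of all mRNAs, 93.9% changed by less than 1.5-fold, 61 were over 2-fold higher and 25 over 2-fold lower. Among the 5000 with the highest mean these counts were 7 and 3. The median SE was 0.19 on the log2 scale. In simulated data of this layout, 95% of 2-fold and 100% of 4-fold changes were called. Those data held no difference between submissions, and changes were planted only in mRNAs above a floor on the mean level. The shares therefore do not carry over to all mRNAs tested here. Both ski2Δ libraries lay above all wild-type libraries for 948 mRNAs (15.0%) and below them for 397 (6.28%).

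The count of calls turned on which libraries stood in the comparison. With submission as a term 13 mRNAs (0.206%) were called, 7 higher and 6 lower, and against I alone 8 were called. Against E and F alone 608 were called, 473 of them higher. Leaving out L gave 3 calls, Q 7, E 11, F 14 and I 601. Of the 34 mRNAs that rose with all libraries, 6 were also called with submission in the fit, and of the 6 that fell only SKI2 was.

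**Figure D2:**
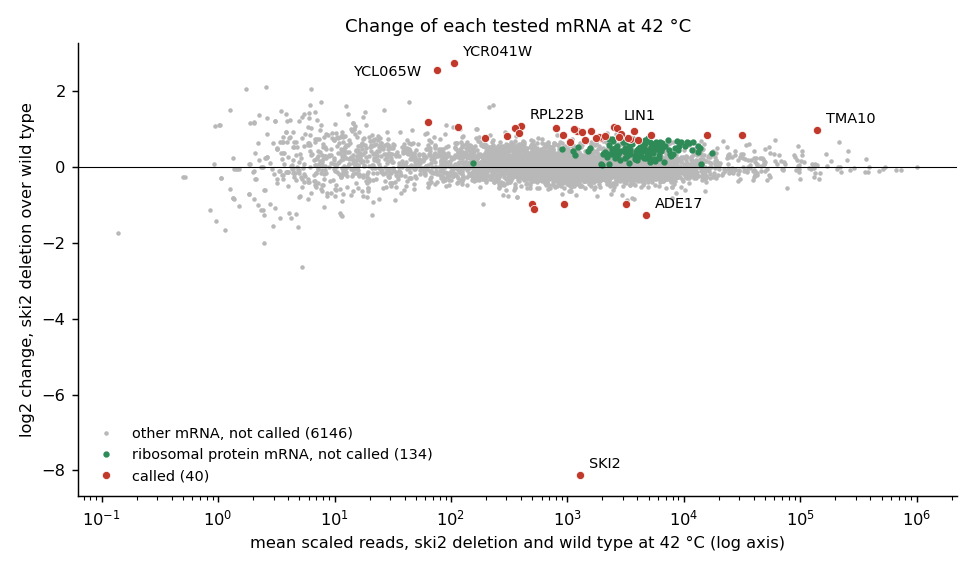
Fitted log2 change of ski2Δ over wild type at 42 °C for each mRNA tested, against its mean level in scaled reads on a log axis; the 40 called mRNAs are red, ribosomal protein mRNAs that were not called are green, and 7 called mRNAs are named. Most points lie near 0 (median 0.01), SKI2 stands at -8.14, and YCR041W and YCL065W are the highest calls at 2.74 and 2.56.

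The mRNA features with the largest rise came from the mating type loci. YCR041W (chromosome III, 200911-201243) is a small reading frame that overlaps the α1 gene of the MAT locus by 59 bases in the reference, which carries the α form. It had 187 and 181 scaled reads in ski2Δ, against 33.3, 19.5 and 29.3 in wild type. YCL065W, a like frame at the silent locus HML, had 132 and 128 in ski2Δ, against 23.3, 24.8 and 17.4 in wild type. The groups stood far apart for both, with log2 changes of 2.74 ± 0.27 and 2.56 ± 0.29 (SE, adjusted p = 3.65e-10 and 1.29e-08). Both were called in all 18 fits run, SKI2 being the only other mRNA of which that was so. HML and MATα hold near-identical sequence, and how reads with several equally good places were treated in RNA-seq is not given in the sources used here, so the split between these frames is uncertain. A MATa strain carries the α sequence only at HML. The α genes themselves were not analysed here. Both were also higher without heat. In unstressed cells YCR041W had 263 and 258 scaled reads in ski2Δ and 38.3, 43.0 and 39.4 in wild type, and YCL065W 186 and 192 against 34.8, 33.7 and 30.9. Against xrn1Δ at 42 °C, YCR041W was higher in ski2Δ by 1.93 on the log2 scale and YCL065W by 1.76. High levels were not particular to ski2Δ. Wild type at 42 °C with the translation inhibitor cycloheximide (J and O) had 141 and 153 scaled reads of YCR041W and 126 and 135 of YCL065W. Wild type without glucose (C and D) had 114 and 98.4 of YCR041W and 64.7 and 66.3 of YCL065W. Unstressed xrn1Δ (M and R) had 90.7 and 74.1, and 58.6 and 72.8.

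Beyond these, 3 mRNAs with at least 100 scaled reads rose under both fits. RPL22B, which codes for the minor copy of a protein of the large ribosomal subunit, had 511 and 570 scaled reads in ski2Δ and 266, 245 and 250 in wild type. The mutant libraries held about as much more over E and F as over I, and the log2 change was 1.09 ± 0.20 (SE, adjusted p = 0.00156, with submission 0.00383). Its major copy RPL22A had 2307 and 2489 against 1933, 1646 and 1896 (0.39, adjusted p = 0.43). LIN1, which codes for a protein bound to the U5 particle of the spliceosome, had 3510 and 3295 in ski2Δ and 1681, 1205 and 2031 in wild type (1.05 ± 0.18 SE, adjusted p = 3.94e-04), but against I alone it missed the threshold (0.74, adjusted p = 0.337). YHC3, a vacuolar membrane protein related to human CLN3, had 1387 and 986 in ski2Δ and 667, 740 and 562 in wild type (0.85 ± 0.18 SE, adjusted p = 0.0126). For all 3 the mutant libraries lay above every wild-type library. Without L the adjusted p rose to 0.0575 for RPL22B, 0.0585 for LIN1 and 0.577 for YHC3. Without Q it was 0.0974 for RPL22B, and without E it was 0.0524 for YHC3.

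Below 100 scaled reads, and so singled out after its values were seen, stood COS12, a member of a subtelomeric gene family. It had 100 and 78.5 scaled reads in ski2Δ and 50.8, 43.5 and 21.1 in wild type (1.20 ± 0.29 SE, adjusted p = 0.0309), and was not called without L or without Q (adjusted p = 0.577 and 0.126). Of 1783 noncoding transcripts 14 (0.785%) were called, 13 of them higher. The higher ones held 11 stable unannotated transcripts (SUTs), a class with 796 of the transcripts tested, and 0 SUTs were called with submission in the fit or against I alone. The noncoding count was 2 with submission, 2 against I alone and 313 against E and F, and leaving out L, Q or E gave 1, F 2 and I 304. The largest change among the 14 called was in ST0678, a cryptic unstable transcript (CUT, a kind usually removed in the nucleus). It was also named after its values were seen. ST0678 had 38.8 and 27.6 scaled reads in ski2Δ, against 2.50, 0.887 and 1.83 in wild type (4.14 ± 0.51 SE, adjusted p = 1.66e-07), and in unstressed cells 108 and 130 against 23.4, 19.8 and 42.6. At 42 °C it rested on 38 and 32 raw reads in ski2Δ and on 3, 1 and 2 in wild type, so the size of its change is uncertain. It was the only noncoding transcript called both with and without submission in the fit.

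**Figure D3:**
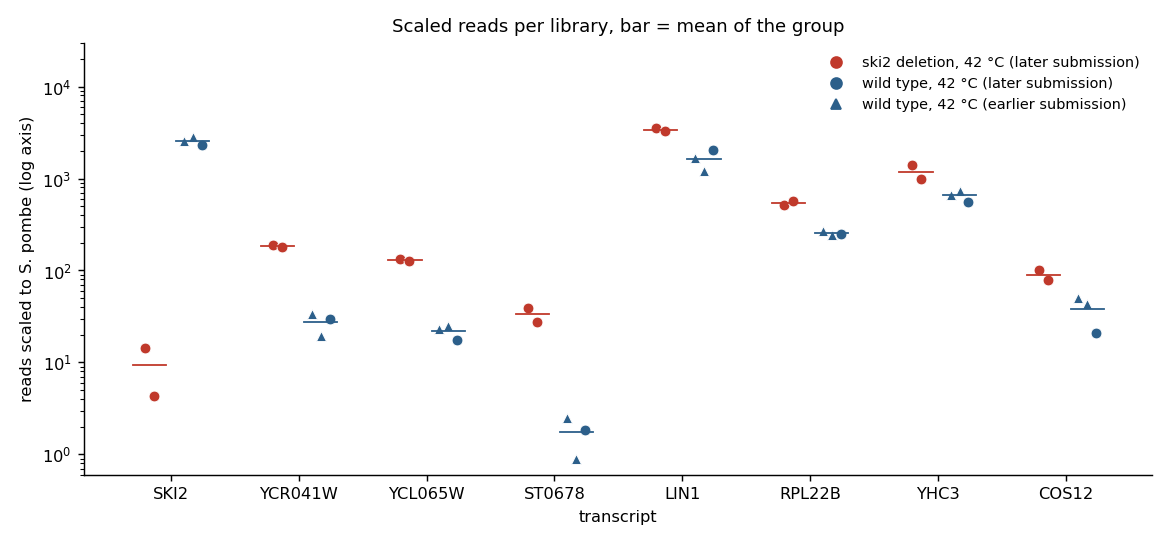
Scaled reads (log axis) in each of the 5 heat shock libraries for the 8 transcripts called with and without submission in the fit; ski2Δ libraries (red) stand left of wild-type libraries (blue), circles mark the later and triangles the earlier submission, and bars are group means. SKI2 drops to 14.3 and 4.32 in ski2Δ, while YCR041W (187 and 181) and ST0678 (38.8 and 27.6) stand above every wild-type library.

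The other 28 mRNAs that rose with all wild-type libraries were not called with submission in the fit, and for 24 of them I was the highest wild-type library. LRP1, a cofactor of the nuclear exosome, had 1732 and 1488 scaled reads in ski2Δ and 802, 636 and 1056 in wild type (0.95 ± 0.18 SE, adjusted p = 0.00249, with submission 0.477). Among the others, PRP46 and SNT309 code for spliceosome proteins, HRP1 for a subunit of the mRNA cleavage machinery and SNM1 for a subunit of RNase MRP, with log2 changes of 0.73, 0.94, 0.73 and 1.03. TMA10, which codes for a ribosome-associated protein, was the most abundant of the calls at 199424 and 168637 scaled reads in ski2Δ and 80300, 47124 and 151018 in wild type (0.99, adjusted p = 0.0477). Against I alone its log2 change was 0.29 and that of SNM1 was 0.26. MRK1, a protein kinase gene, was 1 of the exceptions, with I as its lowest library (1312 and 1304 scaled reads in ski2Δ, against 832, 884 and 742 in wild type).

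Of the 5 mRNAs that fell beside SKI2, 3 held a level in I that was between or below the ski2Δ values. ADE17, an enzyme of purine synthesis, had 3017 and 2571 scaled reads in ski2Δ and 7383, 10050 and 2652 in wild type. The cell wall protein gene SCW4 had 2097 and 2217 against 4839, 5976 and 1895, and the siderophore transporter gene SIT1 had 726 and 540 against 1355, 1714 and 651. I lay between the ski2Δ values for ADE17 and SIT1 and below them for SCW4, and against I alone the log2 changes were 0.08, 0.19 and -0.04, where the fit with all libraries gave -1.26, -0.97 and -0.97. IMD2, which codes for IMP dehydrogenase, and MFA1, the a-factor precursor, lay below every wild-type library in ski2Δ. IMD2 had 338 and 336 scaled reads in ski2Δ and 771, 638 and 562 in wild type (-0.96, adjusted p = 0.0238), and MFA1 had 394 and 268 against 782, 876 and 455 (-1.09, adjusted p = 0.00473). I was the lowest wild-type library for both, and against I alone the log2 changes were -0.74 for IMD2 and -0.46 for MFA1. Neither was called with submission in the fit.

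Partners of Ski2 did not change beyond the test's threshold. SKI3 had 1471 and 1237 scaled reads in ski2Δ and 1551, 1748 and 1529 in wild type (-0.25, adjusted p = 0.636), with the mutant below each wild-type library. SKI8 had 1316 and 997 against 1247, 1320 and 1087 (-0.08), and SKI7 had 1693 and 1276 against 1632, 1645 and 1549 (-0.12). The 13 exosome genes, which code for the 3′ to 5′ degradation machine and its nuclear cofactors, had a median log2 change of 0.03, near that of all mRNAs (0.01). LRP1 alone among them was called. The catalytic subunit gene DIS3 was at -0.03, the nuclear exonuclease gene RRP6 at -0.14 and the cofactor gene MPP6 at 0.58 (adjusted p = 0.146). Among the barrel and cap genes, RRP4 was at 0.07, CSL4 at 0.03, RRP40 at -0.14, SKI6 at -0.02, RRP42 at -0.13, RRP43 at -0.11, RRP45 at 0.20, RRP46 at 0.31 and MTR3 at 0.13. No member was called among 8 genes of nuclear surveillance (median 0.01), 19 of 5′ to 3′ decay (-0.03), 12 of deadenylation (-0.08), 16 of ribosome rescue (-0.01) or 5 of nonsense-mediated decay (0.03). In the 5′ to 3′ list, XRN1 itself had 6279 and 5437 scaled reads in ski2Δ and 7218, 8834 and 6462 in wild type (-0.36, adjusted p = 0.483), and DCP1, which codes for a decapping cofactor, was at 0.31 (adjusted p = 0.522).

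Ribosomal protein mRNAs lay a little above the wild-type level as a group. Their summed share of mRNA reads was 2.55% and 3.17% in ski2Δ libraries L and Q, and 2.14%, 1.94% and 2.17% in wild-type libraries E, F and I. Both mutant libraries were above all wild-type ones, and Q was further above than L. Summed scaled reads were 773137 and 756761 in ski2Δ and 563594, 474933 and 623243 in wild type. All 138 genes had a positive fitted log2 change, beside 52.1% of all mRNAs. The changes ran from 0.06 (RPL6B) to 1.09 (RPL22B), with a median of 0.46 against 0.01 for all mRNAs. Against I alone the median was 0.32 and 128 were positive, with submission it was 0.28 and 133 were positive, and against E and F it was 0.56. Singly, 4 of the 138 passed the test with all libraries, beside 0.538% of all mRNAs called higher. These were RPL22B, RPS10B, RPL27B and RPS29A, and RPL22B alone remained with submission in the fit. RPS10B, a small subunit protein gene, had 6410 and 7082 scaled reads in ski2Δ and 3721, 2946 and 4538 in wild type (0.85, adjusted p = 0.0295). Both mutant libraries exceeded all wild-type libraries for 120 of the 138 genes (87.0%, beside 15.0% of all mRNAs). Many of these genes have a near-identical copy, so the split within a pair is uncertain and the sum is not.

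Ribosome biogenesis mRNAs, which code for RNA polymerase I factors and for proteins that process and assemble ribosomal RNA, also lay a little above the wild-type level. Their share of mRNA reads was 0.547% and 0.599% in ski2Δ, and 0.457%, 0.431% and 0.461% in wild type. The groups did not overlap. All 182 genes passed the filter on low counts. Of these, 168 (92.3%, beside 52.1% of all mRNAs) had a positive log2 change. The median was 0.32 (0.34 against I alone, 0.29 with submission). Both ski2Δ libraries lay above all wild-type libraries for 116 of these genes (63.7%, beside 15.0% of all mRNAs). They lay below them for 2 (1.1%, beside 6.28%). RRN11 and RRP14 were the 2 genes called, both higher, beside 0.538% of all mRNAs. RRN11, a subunit of a polymerase I core factor, had 501 and 447 scaled reads in ski2Δ and 182, 148 and 361 in wild type (1.04, adjusted p = 0.00658), and RRP14, an assembly factor, had 4067 and 3080 against 1466, 1025 and 2781 (1.02, adjusted p = 0.0181). With submission in the fit neither was called (adjusted p = 0.493 and 0.791). The lowest member was UTP22, part of the small subunit processome, at -0.28.

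Both groups stayed far below their unstressed level in the mutant. Ribosomal protein mRNAs made up 19.8% and 20.6% of mRNA reads in unstressed ski2Δ cells and 18.2%, 18.3% and 20.5% in unstressed wild type. For ribosome biogenesis these shares were 2.73% and 2.75% in ski2Δ and 2.89%, 2.90% and 2.78% in wild type. At 42 °C the ribosomal protein share thus stood between 1.94% and 3.17% in every one of the 5 libraries, as the plot of shares by library shows. Without stress, ribosomal protein genes had a median log2 change of 0.21 in ski2Δ over wild type, against 0.14 for all mRNAs, and 0.04 with submission in the fit. Ribosome biogenesis genes had a median of 0.08.

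**Figure D4:**
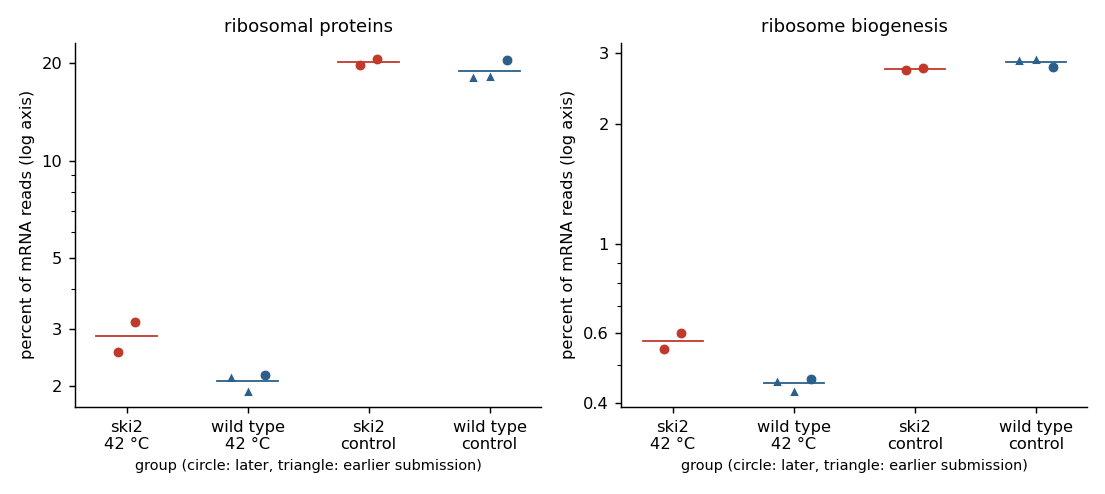
Percent of mRNA reads from ribosomal protein genes and ribosome biogenesis genes (log axis) in each library, with ski2Δ left of wild type at 42 °C and then in unstressed controls; circles mark the later and triangles the earlier submission, and bars are group means. At 42 °C ski2Δ libraries stand at 2.55% and 3.17% for ribosomal proteins, above the wild-type 2.14%, 1.94% and 2.17%, and all lie far under the unstressed 18.2% to 20.6%.

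The share of chaperone mRNA in ski2Δ lay within the wild-type range. Chaperone genes of the heat shock list took 28.5% and 25.9% of mRNA reads in ski2Δ, and 26.6%, 24.0% and 30.8% in wild type. These ranges overlap, and unstressed libraries of both strains held 1.88% to 2.34%. None of the 36 genes tested, of 37 listed, was called, and their median log2 change was 0.01 (-0.17 against I alone, 0.18 against E and F). SSA4, an Hsp70 gene and the most abundant of the list, had 1206482 and 830352 scaled reads in ski2Δ and 951661, 824701 and 1270046 in wild type, and HSP104, the disaggregase gene, had 850045 and 585118 against 725083, 642586 and 918325. L stood high and Q low in each, as they did in total mRNA. HSP33, a rarely expressed family member, had the smallest p of the list, with 312 and 248 scaled reads in ski2Δ and 157, 153 and 154 in wild type (0.86, adjusted p = 0.0882).

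None of the other stress and metabolic groups had more than 1 gene called with all libraries. No gene was called among 42 general stress genes (median 0.06), 21 of trehalose and glycogen (0.09), 22 of glycolysis (-0.06), 31 of translation initiation (-0.01), 13 of translation elongation (-0.09), 34 of the proteasome (-0.16), 10 histone genes (0.00), 36 of the respiratory chain (0.17), 22 of sulfur amino acid synthesis (0.12) or 32 of arginine and lysine synthesis (-0.02). SIT1 was the 1 call among 17 iron genes (median -0.20). The list of 16 phosphate-responsive genes had a median of 0.06 with all libraries and no call, but -0.30 against I alone and -0.72 with submission, where 5 of them (PHO84, SPL2, PHO11, PHO12 and VTC3) were called lower. PHO84, the high-affinity phosphate transporter gene, had 668 and 1363 scaled reads in ski2Δ and 317, 365 and 1542 in wild type, so I was the highest. Its reads in the wild-type controls numbered 34741 in H against 3691 and 2321 in A and B, so this gene moved with the submission in unstressed wild-type cells as well.

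**Figure D5:**
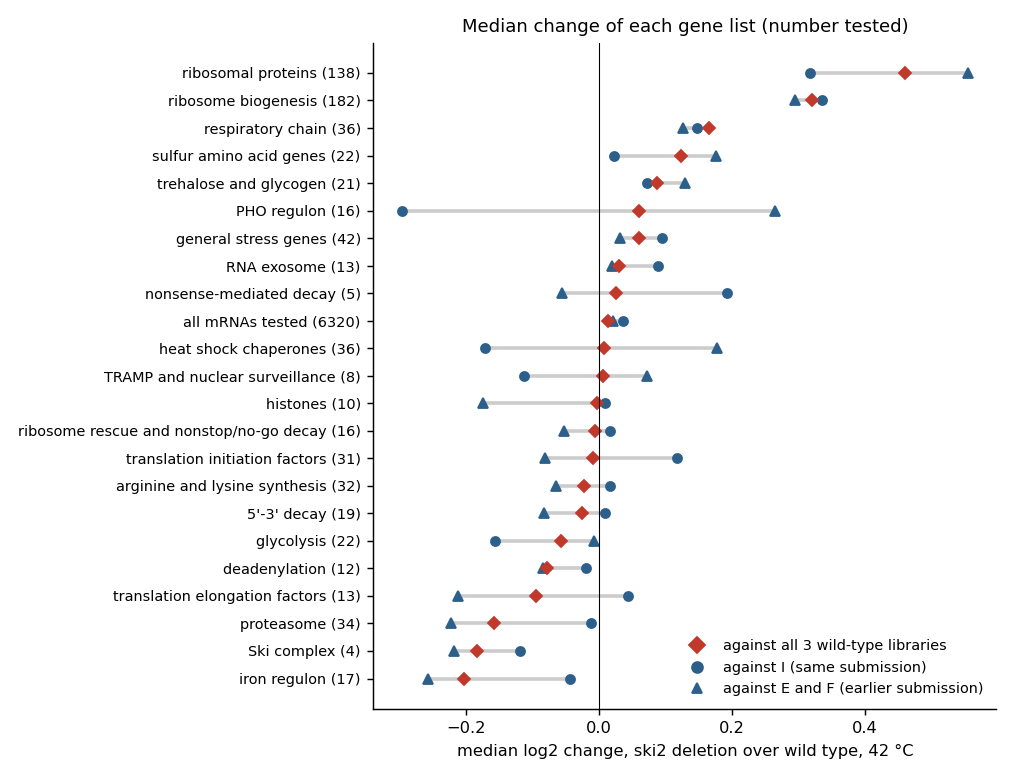
Median fitted log2 change of ski2Δ over wild type at 42 °C for each gene list (number tested in brackets), against all 3 wild-type libraries (diamonds), against I alone (circles) and against E and F (triangles). Ribosomal proteins (0.46) and ribosome biogenesis (0.32) lie highest with all libraries, and the phosphate list shifts most between settings (0.06, -0.30 and 0.27).

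Without stress, too, few mRNAs differed between the strains. In the controls 5 mRNAs (0.0791%) were called, with YCR041W, YCL065W, ARO10 and RRT15 higher and SKI2 lower, and 427 had an unadjusted p under 0.05. With submission as a term 13 mRNAs were called, 10 higher and 3 lower, and leaving out H gave 35 calls. ARO10, a decarboxylase gene of aromatic amino acid breakdown, had 8039 and 7565 scaled reads in unstressed ski2Δ cells and 2688, 2878 and 4611 in wild-type cells (1.20, adjusted p = 4.66e-04). At 42 °C it had 16882 and 11297 in ski2Δ and 13009, 16693 and 13951 in wild type, and the strains overlapped (-0.05). A test of whether the response to heat differed between the strains called no mRNA (0.0%) and no noncoding transcript in edgeR, with 192 mRNAs at an unadjusted p under 0.05 (41 higher, 151 lower). With submission as a term edgeR called 2 mRNAs, both lower (ADE17 and ARO10), and 2 noncoding transcripts, both higher (the small nucleolar RNAs snR30 and snR79). DESeq2 called 0 mRNAs with the S. pombe scale and 21 with its own size factors. Leaving out I gave 96 mRNAs and 35 noncoding transcripts. Over ribosomal protein genes the median of this difference was 0.26 with 130 of 138 positive, and over ribosome biogenesis genes 0.25 with 151 of 182 positive, while over all mRNAs it was -0.13 with 1869 of 6320 positive.

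Set against loss of Xrn1 at 42 °C, loss of Ski2 left many mRNAs lower. All 4 libraries of this contrast are of the later submission. In ski2Δ 576 mRNAs (9.11%) were higher and 2195 (34.7%) lower than in xrn1Δ, with a median log2 difference of -0.28. With mRNA reads as library size, and so without S. pombe reads, the median was -0.23, with 862 higher and 2451 lower. With TMM scaling, which centres the libraries on each other, the median was 0.07 and the split 1879 higher and 1552 lower. The direction for a typical mRNA thus differed between TMM and the other scalings. Leaving out L gave 298 higher and 2263 lower, Q 546 and 1314, N 224 and 2415, and S 650 and 1311. Ribosomal protein mRNAs were lower in ski2Δ under the S. pombe scale and under TMM. They took 2.55% and 3.17% of mRNA reads in ski2Δ and 4.86% and 5.34% in xrn1Δ, the median log2 difference was -0.79 with 0 higher and 99 lower of 138, and with TMM it was -0.42 with 5 higher and 73 lower. Of 182 ribosome biogenesis genes 16 were higher and 98 lower in ski2Δ (median -0.59), and with TMM 49 higher and 82 lower (-0.24). Chaperone genes took 28.5% and 25.9% in ski2Δ and 20.3% and 19.9% in xrn1Δ. The targeted genes marked each strain, with a log2 difference of 6.66 for XRN1 and -7.65 for SKI2 in ski2Δ over xrn1Δ.

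The mRNAs of shorter genes had slightly higher log2 changes than those of longer ones, and chromosomes differed little. Length here is the span of the gene on the genome, introns included, and not the coding length. The 5848 mRNAs with a known length were split into 5 bins of like size. The median log2 change of ski2Δ over wild type at 42 °C was 0.14 in the shortest bin (78 to 636 bases). It was -0.12 in the longest (2112 to 14733 bases), and against I alone the medians were 0.15 and -0.05. In unstressed cells the medians were 0.23 and 0.03. Of 138 ribosomal protein genes, 43 fell in the shortest bin by this span. They had a median of 0.38, beside 0.13 for 1108 genes of that bin outside both ribosome lists. By chromosome the medians ran from -0.02 to 0.03. SUTs had a median of 0.22 and CUTs of 0.09 with all libraries, but -0.02 and -0.20 against I alone.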

How the data were processed

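The 18 RNA-seq libraries were used and the 56 CRAC (crosslinking) files were not. The deposited values are counts: the authors made poly(A)-selected, strand-specific libraries with S. pombe RNA added, aligned reads with Novoalign to the joined intronless S. cerevisiae and S. pombe genomes and counted reads per feature with pyReadCounters, without normalization. The column counting the strand opposite to the read was used. Library size was set to the summed S. pombe reads. Counted reads per library ranged from 27079139 to 47531279.

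Features passing filterByExpr (minimum count 10, minimum total 15) were fitted over all 18 libraries by group with edgeR 4.0.16 (glmQLFit, glmQLFTest, R 4.3.3) with a Benjamini-Hochberg adjusted p of 0.05 as the threshold. DESeq2 1.42.0 was an alternative. Single values were compared by exact permutation in Python 3.11.15 (scipy 1.17.1, numpy 2.4.6, pandas 2.3.3). The fit was tested on simulated data with 200 changed genes among 8060, of which 15 unchanged genes were called. Positions come from RefSeq R64, which matched 5912 of 6546 protein-coding features. Alternatives changed the scaling, filter, wild-type set, submission and left-out library.

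Named transcripts are SKI2 and its neighbours, the Ski and exosome genes, strain markers, up to 12 mRNAs and 5 noncoding transcripts per direction with the largest change called with and without submission, with no overlap of libraries and at least 100 scaled reads, and the genes with the smallest p of a list. The members and the 23 gene lists were chosen with earlier results of these data known. A listed gene that no feature matched by name was not analysed here. ARO10, COS12, ST0678 and other called transcripts were named after their values were seen.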

Additional observations from a re-analysis of the deposited data

How the results depend on the processing

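The main limit is the wild-type set: I alone shares a submission with the mutant, and with 2 mutant libraries a call often rests on both. The count of mRNAs called in ski2Δ over wild type at 42 °C was 40 with all libraries. It was 96 with TMM scaling, 164 with mRNA reads as library size, 487 in DESeq2 with its own size factors, 13 with submission as a term, 8 against I alone, 608 against E and F alone, 3 with only the 5 libraries fitted and 119 among the 5000 highest mRNAs. It ranged from 3 (without L) to 601 (without I) on leaving out 1 library. Chosen after the data were seen, TMM scaling with submission gave 6 and TMM scaling against I alone gave 22. DESeq2 on the S. pombe scale gave 60, no filter 57 and S. pombe reads without chromosome III 38. For the difference in heat response the count was 0, and it was 21 in DESeq2 with its own size factors, 2 with submission, 2 with TMM scaling and submission, and 0 to 96 on leaving out 1 library, with 96 without I. For the unstressed strains it was 5, and it was 9 with TMM scaling, 13 with submission and 4 to 35 on leaving out 1 library, with 35 without H. For ski2Δ over xrn1Δ it was 2771, and 1860 to 2639 on leaving out 1 library. The causes of these shifts were not tested. YCR041W, YCL065W and SKI2 were called in all 18 fits, and ST0678 in the 17 that gave it an adjusted p. ADE17 and SCW4 changed sign against I alone (0.075 and 0.19, and with TMM scaling 0.039 and 0.16). Of 22 list medians all stayed within the spread of the libraries with TMM scaling and with a pseudocount of 1, and all but the phosphate list with submission (-0.72) and the phosphate and elongation lists against I alone (-0.30 and 0.04). No paired analysis was possible because the libraries carry letters and no replicate numbers.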
